A study of Homo sapiens with 12 samples.

Results

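The autophagy machinery is described here through the mRNAs of 36 genes, chosen by name as initiation, membrane, conjugation and cargo receptor genes, and all 36 were found among the 57773 gene rows of the count tables. All 36 also passed the filter on low counts that left 21518 genes for testing. WI-38 is a human diploid fibroblast line that stops dividing and enters senescence after DNA damage. The 12 libraries fell into 4 groups of 3: proliferating cells transfected with a non-targeting siRNA pool (siCtrl) and kept for 8 days in the vehicle DMSO, and senescent cells kept for 8 days in 50 µM etoposide, a topoisomerase II poison, and transfected with siCtrl, with siNTRK2 or with siBDNF. Every group, the proliferating group included, therefore carried an siRNA pool at 25 nM. NTRK2 encodes TrkB, the receptor of the neurotrophin BDNF. Each target was silenced with 1 pool of siRNAs in 1 cell line, no proliferating group with siNTRK2 or siBDNF was analysed here, and senescence and etoposide exposure cannot be told apart. Nothing in the labels says that the replicates came from separate cultures. The paper states, for its cell culture experiments in general, that they were repeated independently with all groups of an experiment handled together. It does not tie this to single libraries, so the p-values are described as measuring the spread between these libraries.

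Macroautophagy encloses cytoplasm in a double membrane, the autophagosome, and delivers it to lysosomes. The ULK1 kinase complex starts the process, the class III PI3-kinase complex marks the membrane with a phosphoinositide, WIPI proteins bind that lipid, ATG2 proteins transfer lipid and ATG9A scrambles it between leaflets. The E1-like ATG7 and the E2-like ATG10 join ATG12 to ATG5, which form a complex with ATG16L1. ATG7, the E2-like ATG3 and this complex attach LC3 and GABARAP proteins to phosphatidylethanolamine, and cargo receptors such as p62 (SQSTM1) link ubiquitylated cargo to them. LC3 and p62 proteins are themselves consumed by autophagy, and mRNA levels report neither lipidation nor flux.

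Total counts ranged from 31567912 to 72328151 per library. NTRK2 was counted 7 to 15 times in the siCtrl-transfected senescent libraries and 0 times in each siNTRK2 library, a count that allows up to 3, and BDNF fell from 9046 to 9774 counts to 1576 to 3308 counts with siBDNF (log2 fold change −1.79 ± 0.05 SE, adjusted p = 1.72e-18). All 7 fibroblast markers were detected, summing to 30850 to 32790 CPM (counts divided by the scaled library size in units of 1e+06) in proliferating, 22460 to 24200 in siCtrl-transfected senescent, 26450 to 29400 in siNTRK2 and 23470 to 24030 in siBDNF libraries, and the 5 leukocyte markers summed to 0.157 to 0.215 CPM in proliferating and 0.953 to 1.98 CPM in senescent libraries. The 5 epithelial markers summed to 17.1 to 19.5 CPM in proliferating and 38.4 to 57.4 CPM in senescent libraries, with CDH1, KRT5 and KRT14 at no more than 3 counts in every proliferating library. The 4 endothelial markers, a sum made up mostly of TEK, summed to 75.2 to 78.0 CPM in proliferating, 34.4 to 40.9 CPM in siCtrl-transfected and siNTRK2 senescent and 24.6 to 25.7 CPM in siBDNF libraries. In siCtrl-transfected senescent against proliferating cells TEK was called lower (32.8 and 75.5 CPM). VWF (1.86 and 0.764 CPM) and KDR (0.273 and 0.0698 CPM) were called higher. The part of these lists in the changes below was not tested. The 5 proliferation markers summed to 239 to 254 CPM in proliferating libraries, 27.6 to 29.8 in siCtrl-transfected senescent libraries, 51.9 to 54.0 with siNTRK2 and 29.4 to 31.2 with siBDNF. The 5 senescence markers (CDKN1A, CDKN2A, GDF15, MDM2 and IL6), a sum made up mostly of CDKN1A, summed to 1117 to 1157, 3220 to 3400, 2279 to 2441 and 3203 to 3320 CPM in the same order, while IL6 was called lower in senescent cells (7.96 and 6.71 CPM). Mitochondrially encoded RNA took 1.598 to 1.989%, 3.33 to 3.65%, 2.50 to 2.85% and 1.78 to 2.38% of counts. In bulk RNA, fewer cells of a kind and less RNA per cell cannot be told apart.

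Per length of transcript, SQSTM1 mRNA was the most abundant of the 36 in siCtrl-transfected senescent cells, at 495 CPM per kilobase of the canonical transcript, followed by GABARAP at 190, GABARAPL1 at 126 and MAP1LC3B at 116 on the same scale. GABARAPL2 stood at 66.0, MAP1LC3A at 24.6, and the other cargo receptors between 19.5 (CALCOCO2) and 45.4 (NBR1). The lowest were the kinase ULK2 at 1.19 and the LC3 protease ATG4C at 1.29 CPM per kilobase. Some neighbours in this order differed by less than the spread between libraries, such as OPTN (42.5) and BECN1 (42.4 CPM per kilobase), where the SD of OPTN was 7.08 around a mean of 147.9 CPM before division by length. Rows of related genes held few counts, with MAP1LC3B2 at 0 to 4, GABARAPL3 at 0 to 9 and MAP1LC3C, a further LC3 gene, at 1 to 12 counts per library.

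Several members share exon bases with a neighbouring gene, and for 4 pairs the deposited counts kept a near constant ratio. The row of ATG10 held a median of 14342 counts, and RPS23, a ribosomal protein gene on the opposite strand that shares 374 exon bases with it, was counted 1.66 to 1.76 times as often in all 12 libraries. MRNIP was counted at 0.423 to 0.445 of SQSTM1, the opposite-strand transcript ENSG00000257663 at 0.489 to 0.541 of ATG101, and the readthrough gene ENSG00000262526 at 1.02 to 1.05 of GABARAP. The ATG10 values below therefore cannot be read as ATG10 mRNA alone, and for SQSTM1, ATG101 and GABARAP the reads shared with the partner gene could not be told apart. BECN1, ATG14, ATG4D and ATG12 also overlap a gene with more counts (PSME3, FBXO34, KRI1 and AP3S1), but there the ratios varied more, for example 1.83 to 2.48 for PSME3 over BECN1.

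**Figure D1:**
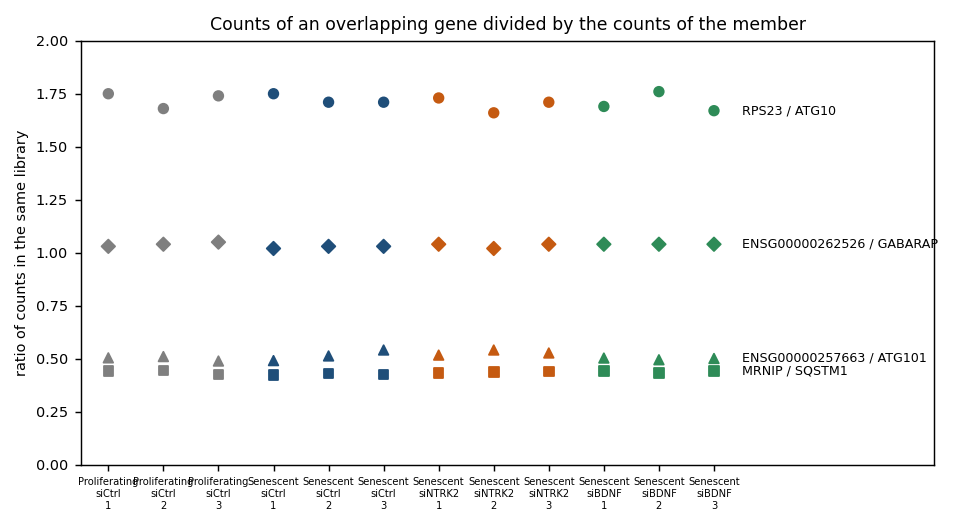
Counts of an overlapping gene divided by the counts of the member (y axis, a ratio without unit) in each of the 12 libraries (x axis, coloured by group). Each of the 4 pairs stayed within a narrow band in all groups, RPS23 over ATG10 between 1.66 and 1.76.

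In senescent against proliferating cells, 4 of 5 genes were called higher and 0 lower in each of 3 roles (ATG9, ATG2 and WIPI, the LC3 and GABARAP genes, and the cargo receptors), while 2 of the 10 conjugation enzymes and proteases were called higher and 5 lower, the row of ATG10 among the latter. By edgeR's quasi-likelihood test, 26 of 36 members passed an adjusted p of 0.05, against 58.1% of all genes tested. Of these, 18 rose (29.8% of all genes rose) and 8 fell (28.3% of all genes fell), the row of ATG10 among the latter. None of the members passed an absolute log2 fold change of 1, which 16.7% of all genes did. The genes tested include rows with few counts, whereas no member had fewer than 148 counts in any library. With a minimum of 10 counts in every library, 10616 of 17028 genes were called. The median log2 fold change was 0.15 over the members and 0.02 over all genes, and the median absolute change was 0.29 against 0.39. Correcting each library for length and GC content of the transcripts (the offset named below) moved the median of all genes from 0.02 to −0.12 and the members' split from 18 higher and 8 lower to 15 and 14. That offset also takes out each library's mean log level, so it rescales the libraries as well. Changes given with the offset hold both parts, which were not separated.

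**Figure D2:**
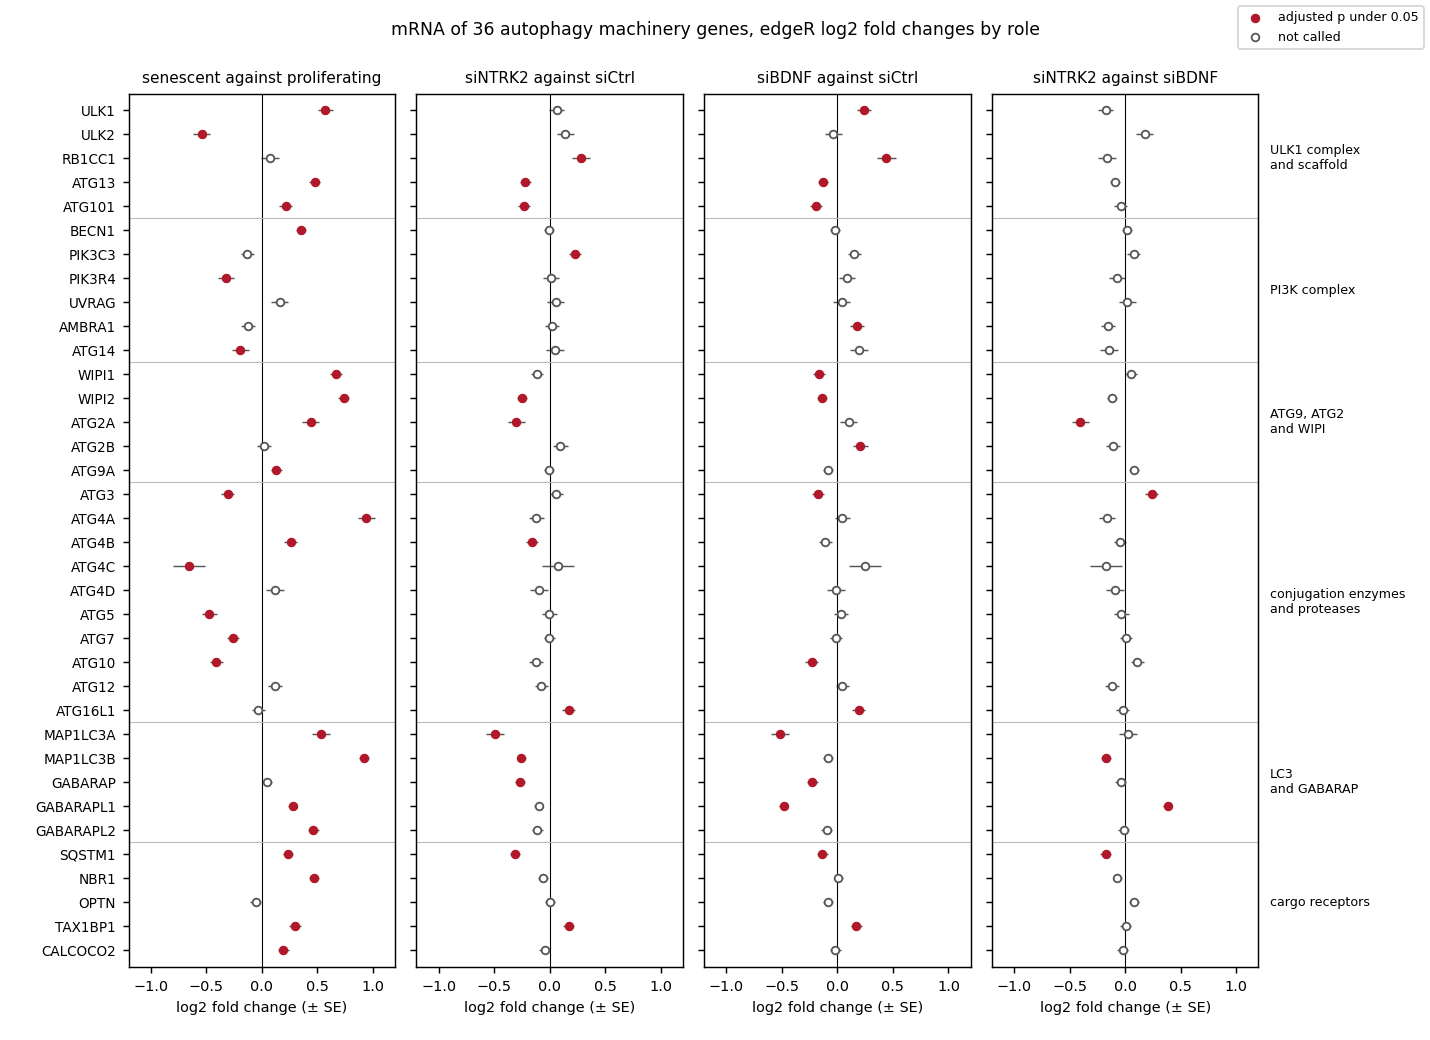
Log2 fold changes (x axis, ± SE) of the 36 genes, grouped by role (rows), in 4 comparisons (panels). Filled points passed an adjusted p of 0.05, and no point lies beyond 1 in either direction. The 3 comparisons that contain siCtrl-transfected senescent cells share those libraries.

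Of the 5 LC3 and GABARAP genes, 4 rose in senescent cells, with GABARAP not called. MAP1LC3B (chr16:87417559-87438385 in hg19, plus strand), which encodes a widely used autophagosome marker protein, had 131.5, 135.2 and 129.8 CPM in the proliferating libraries and 244, 248 and 258 in the siCtrl-transfected senescent ones. The groups lay far apart, and the log2 fold change was 0.92 ± 0.04 (SE), 1.89-fold, with an adjusted p of 2.49e-15. MAP1LC3A (chr20:33134658-33148149), the less abundant LC3 gene, went from 16, 15.2 and 18.1 CPM to 24.5, 22.2 and 24.3 CPM, again without overlap (0.53 ± 0.08, adjusted p = 3.24e-06, and 0.29 with the length and GC offset).

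GABARAPL2, which encodes GATE-16, had 48.2, 47.7 and 43.9 CPM in proliferating and 65.4, 63.6 and 64.0 CPM in senescent libraries, all of the latter higher (0.46 ± 0.05, adjusted p = 2.39e-08). GABARAPL1 (chr12:10365057-10375727) had 193, 199 and 194 CPM against 237, 235 and 238 CPM, also without overlap (0.28 ± 0.04, adjusted p = 3.67e-06), and lost its call with the length and GC offset (0.05, adjusted p = 0.251). GABARAP (chr17:7143327-7145768, minus strand), which gives its branch of the family its name, overlapped between the groups at 234, 240 and 256 CPM against 256, 232 and 264 CPM. Its log2 fold change was 0.05 ± 0.05 (adjusted p = 0.44), and −0.19 with the offset, where it was called lower.

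Of the 5 cargo receptors, 4 were called higher and OPTN was not called. NBR1, a ubiquitin-binding receptor with an LC3-interacting motif, had 146, 155 and 153 CPM in proliferating and 205, 215 and 208 CPM in senescent libraries, which did not overlap (0.47 ± 0.04, adjusted p = 8.23e-10). TAX1BP1 had 99.2, 100.6 and 96.2 CPM against 114, 129.9 and 119.6 CPM, all higher in senescent cells (0.30 ± 0.05, adjusted p = 1.6e-05). SQSTM1 (chr5:179233398-179265078), which encodes p62, had 1150, 1178 and 1255 CPM against 1434, 1328 and 1455 CPM.

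The SQSTM1 groups did not overlap (0.24 ± 0.05, adjusted p = 1.07e-04), and the call was lost with the length and GC offset (0.03). CALCOCO2, which encodes the receptor NDP52, had 61.2, 63.9 and 61.3 CPM against 71.1, 67.5 and 74.2 CPM, higher in all senescent libraries (0.19 ± 0.05, adjusted p = 0.00218). With the offset the CALCOCO2 change was 0.10, and the call was lost where the offset was joined with the replicate block (adjusted p = 0.0512). OPTN, encoding the mitophagy receptor optineurin, gave 151.8, 154.0 and 156.2 CPM against 139.8, 151.2 and 152.8 CPM, overlapping ranges with a log2 fold change of −0.06 ± 0.05 (adjusted p = 0.3), and was called lower with the offset (−0.18).

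**Figure D3:**
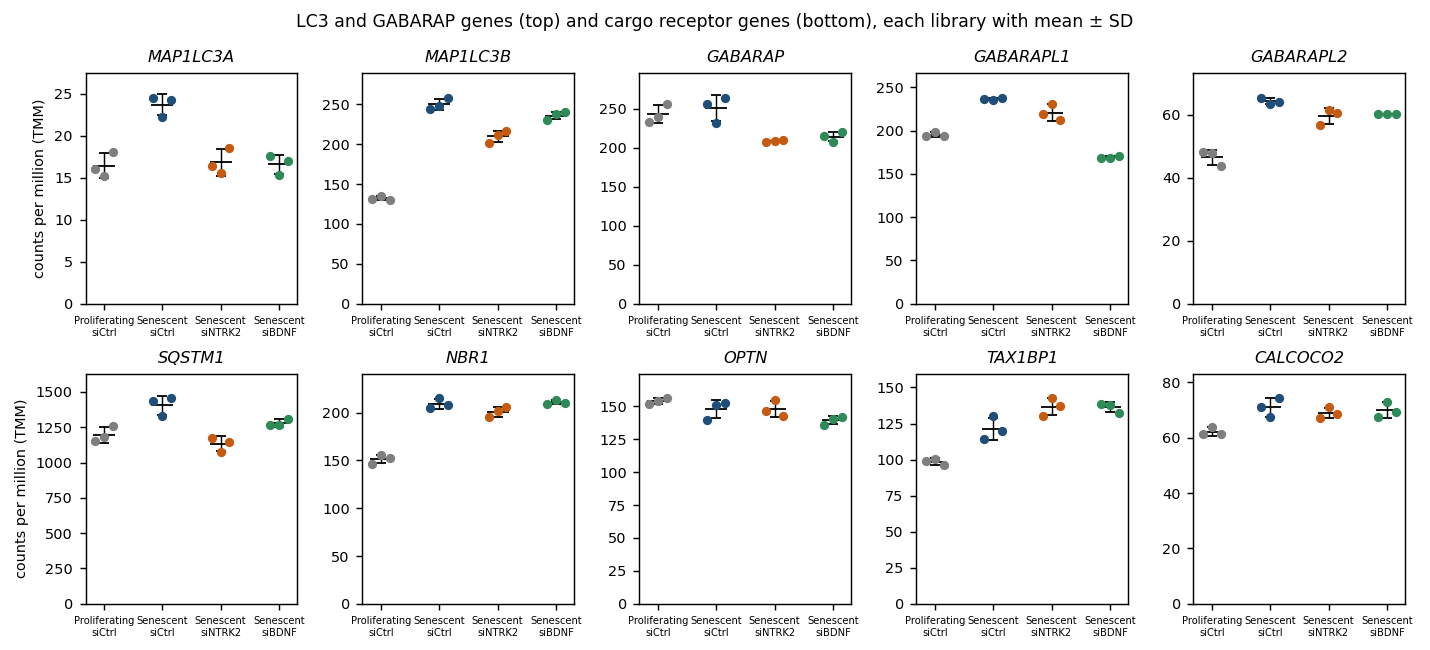
Levels of the 5 LC3 and GABARAP genes (top row) and the 5 cargo receptors (bottom row) in CPM (y axis, from 0) for each library (points, coloured by group on the x axis), with mean ± SD of 3 libraries. MAP1LC3B is highest in the 3 siCtrl-transfected senescent libraries (244 to 258 CPM), and GABARAPL1 is lowest in the 3 siBDNF libraries (168.5 to 170.6 CPM).

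Upstream of LC3, 4 of the 5 ATG9, ATG2 and WIPI genes were called higher. WIPI2, the phosphoinositide effector that recruits ATG16L1, had 76.9, 80.5 and 79.4 CPM in proliferating and 135, 126.5 and 132.8 CPM in senescent libraries (0.74 ± 0.05, adjusted p = 9.75e-13). Its relative WIPI1 had 56.8, 63.7 and 62.2 CPM against 98.1, 92.4 and 99.4 CPM (0.67 ± 0.05, adjusted p = 5.28e-11). Neither gene had overlapping groups. The lipid transfer gene ATG2A rose by 0.44 ± 0.08 (adjusted p = 2.39e-05). With the length and GC offset the changes were 0.44 for WIPI1 and 0.18 for ATG2A. ATG9A rose by 0.13 ± 0.05, turned to −0.07 with the offset, and lost its call without a filter and without 4 of the 6 libraries. ATG2B, the paralog of ATG2A, was not called at 38.4 ± 2.72 and 39.0 ± 3.33 CPM (SD, n = 3), and its log2 fold change turned from 0.02 to as low as −0.28 with the offset.

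The initiation genes split, with 3 of the 5 genes of the ULK1 complex and scaffold called higher and 1 lower. ULK1, the kinase that starts autophagy, had 32.5, 29.2 and 33.6 CPM against 48.1, 47.4 and 45.7 CPM in senescent cells (0.57 ± 0.07, adjusted p = 8.03e-08). ULK2, its close paralog, moved the other way from 15.8, 16.1 and 15.5 CPM to 9.99, 11.1 and 11.4 CPM (−0.54 ± 0.08, adjusted p = 9.94e-07). Both kinases thus separated fully between the groups, in opposite directions. ATG13, the adaptor of the complex, rose by 0.47 ± 0.05 and ATG101, which stabilises ATG13, by 0.21 ± 0.06, the latter not with the length and GC offset (−0.00560). With that offset the changes were 0.33 for ULK1, −0.86 for ULK2 and 0.24 for ATG13. The scaffold gene RB1CC1 was not called (0.07 ± 0.08, adjusted p = 0.489) and its groups overlapped. It was called higher with the offset alone, but not with the offset and the replicate block together.

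Among the 6 genes of the PI3K complex, BECN1 (Beclin 1) rose by 0.35 ± 0.05 (adjusted p = 5.15e-07), with 70.2 ± 1.84 CPM in proliferating and 89.4 ± 0.266 CPM in senescent cells and a change of 0.18 with the length and GC offset. PIK3R4, the regulatory subunit also called VPS15, fell from 25.7, 27.8 and 24.9 CPM to 21.4, 21.3 and 20.2 CPM (−0.32 ± 0.07, adjusted p = 3.94e-04). ATG14, which directs the complex to autophagosome formation, was called lower at −0.19 ± 0.08 (adjusted p = 0.0375) although its groups overlapped, and the call was lost in 5 of 9 other settings and without 4 of the 6 libraries (−0.31 with the offset, where it was kept). The catalytic subunit PIK3C3 (37.2 ± 0.964 and 33.9 ± 0.755 CPM), UVRAG and AMBRA1 were not called. With the length and GC offset PIK3C3 and AMBRA1 were called lower, AMBRA1 moving from −0.12 to as low as −0.35, and UVRAG moved from 0.16 to as low as −0.01.

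Of the 10 conjugation enzymes and proteases, 2 were called higher and 5 lower. The proteases of the ATG4 family, which trim LC3 and GABARAP before conjugation and release them afterwards, diverged. ATG4A (chrX:107334898-107397901) had 11.2, 12.5 and 13.2 CPM in proliferating and 22.6, 22.7 and 25.3 CPM in senescent libraries, the largest increase of the 36 except without proliferating replicate 1 or siCtrl-transfected senescent replicate 3, where that of MAP1LC3B was larger (0.94 ± 0.07, 1.92-fold, adjusted p = 3.76e-11). ATG4C had 6.73, 6.41 and 4.65 CPM against 3.56, 3.5 and 4.34 CPM (−0.65 ± 0.14, adjusted p = 3.58e-04), the largest decrease except with the length and GC offset, where that of ULK2 was larger (−0.86). Both sets of libraries were separated, although the lowest proliferating value of ATG4C (4.65) lay just above the highest senescent one (4.34). ATG4B rose by 0.26 ± 0.06 (0.06 and not called with the offset), and ATG4D was not called.

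The E1-like ATG7, the E2-like ATG3, ATG5 and the row of ATG10 were called lower in this role besides ATG4C. The row of ATG10 cannot be read as ATG10 mRNA alone. ATG5, the partner of ATG12 in the E3-like complex, fell from 33.7, 32.1 and 29.5 CPM to 23.3, 22.5 and 23.0 CPM (−0.47 ± 0.07, adjusted p = 9.12e-07), without overlap. The E2-like ATG3 fell by 0.31 ± 0.06 (adjusted p = 4.61e-05) and the E1-like ATG7 by 0.26 ± 0.05 (adjusted p = 1.23e-04), with −0.53 and −0.51 under the length and GC offset. The row of ATG10 went from 323.7, 356.7 and 371.5 CPM to 264.7, 245.7 and 280.4 CPM (−0.41 ± 0.06), and RPS23 changed by −0.41 in the same fit. ATG12 and ATG16L1 were not called, at 49.9 ± 3.62 and 54.3 ± 2.15 CPM for ATG12 and 27.6 ± 1.15 and 26.9 ± 0.704 CPM for ATG16L1. With the length and GC offset ATG12 was called higher, moving from 0.12 to as much as 0.28, and ATG16L1 lower, moving from −0.03 to as low as −0.26.

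The silencing of NTRK2 in senescent cells, against siCtrl, asks whether these mRNAs differ in the cells that remain after loss of the receptor. Of the 5 LC3 and GABARAP genes 3 were called lower with siNTRK2, as was SQSTM1, and RB1CC1, PIK3C3, TAX1BP1 and ATG16L1 were called higher. Of the 36 members 13 were called, against 21.1% of all genes tested, 4 of them higher (11.1% of all genes) and 9 lower (10.0% of all genes). None of the members passed an absolute log2 fold change of 1, which 0.957% of all genes did. With a minimum of 10 counts in every library, 4705 of 17028 genes were called. The median log2 fold change was −0.03 over the members and −0.0024 over all genes, with median absolute changes of 0.10 and 0.18. In these libraries all 5 proliferation markers were called higher (0.55 to 1.72), 5 of 7 fibroblast markers higher and 1 lower, 4 of 5 senescence markers lower and CDKN2A higher (36.4 and 42.0 CPM), and the share of mitochondrial RNA was lower in every siNTRK2 library. The part of these in the changes below was not tested.

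MAP1LC3A had 24.5, 22.2 and 24.3 CPM with siCtrl and 16.4, 15.5 and 18.5 CPM with siNTRK2, lower in all 3 libraries (−0.49 ± 0.08, adjusted p = 6.57e-05). MAP1LC3B went from 244, 248 and 258 CPM to 201.7, 211.4 and 216.0 CPM (−0.25 ± 0.04, adjusted p = 1.1e-04). GABARAP went from 256, 232 and 264 CPM to 207.7, 208.3 and 209.5 CPM (−0.27 ± 0.05, adjusted p = 2.57e-04). None of the 3 overlapped between the groups, and GABARAP was −0.17 with the length and GC offset. GABARAPL1 (219, 231 and 213 CPM) and GABARAPL2 (56.7, 61.4 and 60.7 CPM) lay below all siCtrl libraries but were not called (−0.10 ± 0.04, adjusted p = 0.0967, and −0.11 ± 0.05, adjusted p = 0.131). DESeq2's Wald test called GABARAPL1 lower (adjusted p = 0.0283).

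SQSTM1 had 1176, 1076 and 1146 CPM with siNTRK2 against 1434, 1328 and 1455 CPM with siCtrl, the largest decrease among the receptors and without overlap (−0.31 ± 0.05, adjusted p = 2.3e-05). TAX1BP1 was the receptor called higher, with 130.4, 142.6 and 137.4 CPM against 114.4, 129.9 and 119.6 CPM (0.17 ± 0.05, adjusted p = 0.014). The lowest siNTRK2 value of TAX1BP1 lay just above the highest siCtrl value, and the call was lost without siCtrl replicate 1 or replicate 3. NBR1, OPTN and CALCOCO2 were not called (−0.06 ± 0.04, −0.00018 ± 0.05 and −0.04 ± 0.05), and their groups overlapped.

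In the other roles, ATG2A had 33.3, 25.2 and 30.9 CPM with siNTRK2 against 36.9, 36.97 and 36.5 CPM with siCtrl, lower throughout and more variable (−0.30 ± 0.08, adjusted p = 0.00519, and −0.19 without siNTRK2 replicate 2). WIPI2 fell by 0.25 ± 0.05, ATG101 by 0.23 ± 0.06, ATG13 by 0.22 ± 0.05 and ATG4B by 0.16 ± 0.06. RB1CC1, which encodes the scaffold FIP200 of the ULK1 complex, had 46.2, 45.8 and 51.9 CPM against 35.8, 44.7 and 38.0 CPM (0.28 ± 0.08, adjusted p = 0.0155). PIK3C3 had 40.5, 36.6 and 42.1 CPM against 33.9, 34.7 and 33.2 CPM (0.23 ± 0.06, adjusted p = 0.00564). ATG16L1 had 31.2, 29.1 and 30.4 CPM against 27.4, 27.2 and 26.1 CPM (0.17 ± 0.06, adjusted p = 0.0396). Both were higher in all 3 siNTRK2 libraries. With the length and GC offset the change was 0.17 for RB1CC1 and −0.14 for ATG101. Of the increases, that of PIK3C3 was lost with the length and GC offset (0.10) and without siNTRK2 replicate 3 (adjusted p = 0.0510), and those of RB1CC1 and ATG16L1 without siCtrl replicate 1 or 3 or siNTRK2 replicate 3. That of ATG16L1 was also lost without siNTRK2 replicate 1, without a filter and with only the 2 groups compared. Leaving out siCtrl replicate 1, siCtrl replicate 3 or siNTRK2 replicate 3 left 1 member called higher. The ATG4B call was lost in 6 of the 9 other settings and without 5 of the 6 libraries.

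The silencing of BDNF asks the same of the ligand. LC3 and GABARAP genes were again among the members called lower, here GABARAPL1, GABARAP and MAP1LC3A, and RB1CC1 was called higher. Of the 36 members 16 were called, against 20.5% of all genes tested, 6 of them higher (10.3% of all genes) and 10 lower (10.2% of all genes), the row of ATG10 among the latter. None of the members passed an absolute log2 fold change of 1, which 0.609% of all genes did. With a minimum of 10 counts in every library, 4589 of 17028 genes were called. The median log2 fold change was −0.02 over the members and 0.0040 over all genes, with median absolute changes of 0.13 and 0.17. The count of members called was unstable: it was 4 without siBDNF replicate 2 or without siCtrl replicate 3, 7 without siCtrl replicate 1, and 9 and 10 without siBDNF replicates 1 and 3. Only 4 members, RB1CC1, GABARAP, GABARAPL1 and MAP1LC3A, stayed called in all 9 other settings and with each of the 6 libraries left out. The share of mitochondrial RNA was also lower in every siBDNF library, 4 of 7 fibroblast markers were called lower and 1 higher, and 1 of 5 proliferation markers was called higher. The part of these was not tested.

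GABARAPL1 had 168.5, 168.9 and 170.6 CPM with siBDNF against 236.8, 235.4 and 237.9 CPM with siCtrl, and the siBDNF libraries were also below the proliferating ones at 193.3 to 198.8 CPM (−0.48 ± 0.04, 0.716-fold, adjusted p = 9.37e-09). MAP1LC3A had 17.5, 15.3 and 16.95 CPM against 24.5, 22.2 and 24.3 CPM (−0.52 ± 0.08, adjusted p = 4.58e-05). GABARAP had 215.0, 207.9 and 220.3 CPM against 256.5, 232.4 and 264.2 CPM (−0.23 ± 0.05, adjusted p = 0.00139). The groups of all 3 genes were separated. MAP1LC3B, at 231, 237 and 240 CPM, was not called (−0.08 ± 0.04, adjusted p = 0.196), nor was GABARAPL2 at 60.2, 60.1 and 60.2 CPM (−0.10 ± 0.05, adjusted p = 0.207). With the length and GC offset MAP1LC3B was called lower (−0.11).

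Among the receptors, SQSTM1 was called lower with siBDNF at 1268, 1263 and 1309 CPM (−0.13 ± 0.05, adjusted p = 0.0386), a call that was lost in 2 of the 9 other settings and without 4 of the 6 libraries. TAX1BP1 was called higher at 138.7, 137.8 and 132.3 CPM (0.17 ± 0.05, adjusted p = 0.017), also lost without 4 of the 6 libraries and with the length and GC offset (0.04). NBR1, OPTN and CALCOCO2 were not called (0.01 ± 0.04, −0.08 ± 0.05 and −0.02 ± 0.05), with NBR1 turning to −0.06 and OPTN called lower (−0.12) with the offset, and CALCOCO2 turning to 0.04 with library totals as the only scaling. That scaling also moved the median of all genes, from 0.0040 to 0.061. RB1CC1 had 53.3, 54.6 and 53.1 CPM with siBDNF against 35.8, 44.7 and 38.0 CPM with siCtrl, without overlap (0.44 ± 0.08, 1.36-fold, adjusted p = 3.16e-04, and 0.23 with the length and GC offset).

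ULK1 rose from 48.1, 47.4 and 45.7 CPM to 53.7, 57.8 and 54.9 CPM (0.24 ± 0.07, adjusted p = 0.0106), having already been higher in senescent than in proliferating cells. ATG2B had 45.1, 45.1 and 44.9 CPM against 37.5, 42.8 and 36.7 CPM (0.21 ± 0.07), and turned to −0.04 under the length and GC offset. ATG16L1 had 29.5, 31.5 and 31.0 CPM against 27.4, 27.2 and 26.1 CPM (0.19 ± 0.06). AMBRA1, a Beclin 1 partner, had 25.4, 28.2 and 26.3 CPM against 23.7, 23.8 and 23.3 CPM (0.18 ± 0.06). All 3 genes were called higher and did not overlap between the groups. The AMBRA1 call was lost in 5 of the 9 other settings and without 5 of the 6 libraries. These settings included the replicate block (adjusted p = 0.054) and the length and GC offset (0.13). ATG101 was called lower at 56.7, 55.6 and 55.8 CPM against 65.7, 58.8 and 67.5 CPM (−0.19 ± 0.06), and was −0.13 and not called with the offset. ATG3 (−0.18 ± 0.06), WIPI1 (−0.17 ± 0.05), WIPI2 (−0.14 ± 0.05) and ATG13 (−0.13 ± 0.05) were called lower. The ATG3 call was lost in 4 of the 9 other settings, among them the length and GC offset (−0.13). That of ATG13 was lost in 3, among them the replicate block (adjusted p = 0.0533). With library totals as the only scaling WIPI1 was −0.11, WIPI2 −0.078, ATG13 −0.072 and SQSTM1 −0.077, and each lost its call. The row of ATG10 went from 264.7, 245.7 and 280.4 CPM to 223.1, 212.9 and 236.5 CPM (−0.23), and that of RPS23 changed by −0.25 in the same fit. Each member call in this paragraph was lost without siCtrl replicate 3 and without siBDNF replicate 2.

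Both silencings were compared directly, with siNTRK2 against siBDNF, to see where they differed. By the same test, 5 of 36 members were called, against 16.7% of all genes tested, 2 higher with siNTRK2 (8.84% of all genes) and 3 lower (7.86% of all genes). None of the members passed an absolute log2 fold change of 1, which 1.16% of all genes did. With a minimum of 10 counts in every library, 3622 of 17028 genes were called. The median was −0.04 over the members, with −0.0037 over all genes. In this comparison all 5 proliferation markers and 6 of 7 fibroblast markers were called higher with siNTRK2, and 4 of 5 senescence markers lower. Mitochondrially encoded RNA took 2.50 to 2.85% of counts with siNTRK2 and 1.78 to 2.38% with siBDNF. The part of these in the differences below was not tested. GABARAPL1 was higher with siNTRK2, at 219, 231 and 213 CPM against 168.5, 168.9 and 170.6 CPM (0.38 ± 0.04, adjusted p = 2.7e-07). ATG3 was higher too, at 40.3, 43.2 and 39.5 CPM against 32.9, 34.7 and 36.5 CPM (0.24 ± 0.06, adjusted p = 0.00453). Neither gene had overlapping groups.

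ATG2A was lower with siNTRK2, at 33.3, 25.2 and 30.9 CPM against 37.8, 40.0 and 40.6 CPM with siBDNF (−0.40 ± 0.08, adjusted p = 4.0e-04). SQSTM1 was lower at 1176, 1076 and 1146 CPM against 1268, 1263 and 1309 CPM (−0.18 ± 0.05, adjusted p = 0.00897), and MAP1LC3B at 201.7, 211.4 and 216.0 CPM against 230.7, 237.4 and 240.1 CPM (−0.17 ± 0.04, adjusted p = 0.0064). All 3 separated between the groups, and the SQSTM1 call was lost without siNTRK2 replicate 2 (−0.13) and without siBDNF replicate 3 (−0.16). The remaining LC3, GABARAP and receptor genes were not called, with log2 differences of 0.02 (MAP1LC3A), −0.04 (GABARAP), −0.01 (GABARAPL2), −0.07 (NBR1), 0.08 (OPTN), 0.01 (TAX1BP1) and −0.02 (CALCOCO2), each with an SE of 0.04 to 0.08. With library totals as the only scaling 10 members were called, and with the length and GC offset 9, including OPTN (0.13).

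The promoters of 3 of these 5 genes are shown because they hold a searched motif of a factor known to act on autophagy or stress genes. Each sequence is the 250 bases before the RefSeq transcript start (GRCh38.p14, 5′ to 3′ on the gene's strand), with the motif in capitals, and RefSeq windows were matched for 32 of the 36 members.
GABARAPL1 (chr12:10212627-10212876, plus strand): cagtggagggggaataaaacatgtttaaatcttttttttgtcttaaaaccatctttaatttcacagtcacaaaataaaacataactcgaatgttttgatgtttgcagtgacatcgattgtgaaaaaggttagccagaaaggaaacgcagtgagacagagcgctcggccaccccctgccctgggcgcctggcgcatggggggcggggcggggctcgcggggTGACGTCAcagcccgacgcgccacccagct
ATG3 (chr3:112561963-112562212, minus strand): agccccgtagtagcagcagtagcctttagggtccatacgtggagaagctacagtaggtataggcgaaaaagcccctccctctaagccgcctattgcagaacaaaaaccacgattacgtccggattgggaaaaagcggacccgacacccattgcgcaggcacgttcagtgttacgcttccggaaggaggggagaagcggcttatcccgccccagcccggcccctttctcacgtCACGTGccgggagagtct
MAP1LC3B (chr16:87392086-87392335, plus strand): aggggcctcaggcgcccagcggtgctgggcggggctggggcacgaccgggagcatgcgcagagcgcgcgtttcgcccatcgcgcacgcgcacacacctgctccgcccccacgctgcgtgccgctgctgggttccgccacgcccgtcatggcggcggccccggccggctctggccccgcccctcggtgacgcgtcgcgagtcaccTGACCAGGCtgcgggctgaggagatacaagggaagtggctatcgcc
In the GABARAPL1 promoter the capitals mark TGACGTCA, the cAMP response element letters, 30 to 23 bases before the start. They mark CACGTG, the E-box core of the CLEAR element bound by TFEB, 18 to 13 bases before the start of ATG3, and a match to TGACNNNGC, the antioxidant response element letters, 46 to 38 bases before the start of MAP1LC3B. Both strands were searched. Of all 35116 windows of this length, 1.65% held TGACGTCA, 6.34% CACGTG and 10.9% TGACNNNGC, and among the members these were found in GABARAPL1 for the first, in ATG3 and ATG14 for the second, and in MAP1LC3B, ATG101 and CALCOCO2 for the third. The full CLEAR element, which extends the E-box core by 2 bases on each side, was in 0.308% of windows and in 0 of the 32 members' windows. The FOXO letters TGTTTAC were in 2.98% of windows and among the members in CALCOCO2 alone. A match is a description of letters, and the promoter windows of SQSTM1 and ATG2A held none of these motifs.

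Within the LC3 and GABARAP family the make-up of the mRNA pool, which does not depend on scaling between libraries, also differed. Of the summed counts per kilobase, MAP1LC3B took 14.9 ± 0.444% (SD, n = 3) in proliferating and 22.3 ± 0.637% in siCtrl-transfected senescent cells, while GABARAP went from 44.5 ± 1.42% to 36.4 ± 1.28%. The ranges of the libraries did not overlap for either gene. A share can fall where other genes of the family rise, and the level of GABARAP itself was not called different (log2 fold change 0.05). GABARAPL1 took 24.1 ± 0.645% in siCtrl-transfected senescent cells, 26.0 ± 0.981% with siNTRK2 and 20.4 ± 0.205% with siBDNF, the siBDNF range of 20.2 to 20.6% lying below all others. Among the receptors SQSTM1 took 77.6 ± 1.29% with siCtrl, 73.3 ± 1.47% with siNTRK2 and 75.7 ± 0.505% with siBDNF in senescent cells, and TAX1BP1 5.57 ± 0.535%, 7.36 ± 0.514% and 6.69 ± 0.262%. The SQSTM1 ranges with siCtrl (76.13 to 78.58%) and siBDNF (75.16 to 76.17%) overlapped. With 3 libraries against 3, an exact permutation test cannot fall below a p of 0.1, so none was run.

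**Figure D4:**
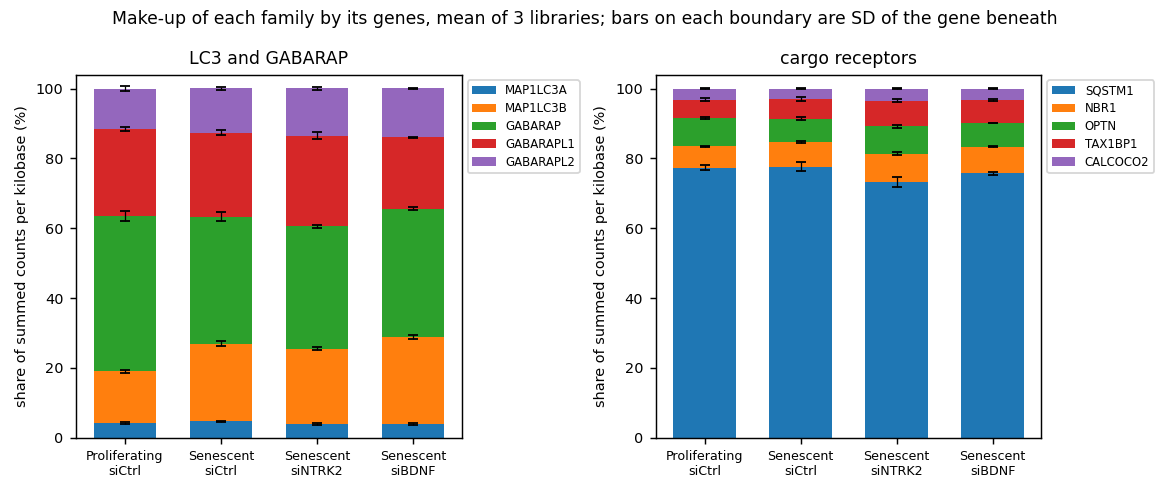
Share of each gene in the summed counts per kilobase of its family (y axis, %), LC3 and GABARAP genes at left and cargo receptors at right, as the mean of 3 libraries for each group (x axis), with SD bars for the gene beneath each boundary. The MAP1LC3B segment is 14.9% in proliferating cells and 21.6 to 24.9% in the senescent groups, and SQSTM1 fills 73.3 to 77.6% of the receptor bars.

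The members called higher and lower were also counted by GC content of the transcripts. With siNTRK2, the 9 members with at least 55% GC included 5 called lower (ATG2A, ATG4B, ATG101, MAP1LC3A and SQSTM1) and 0 called higher, and the 15 members under 45% GC included 3 called higher and 1 lower. Of all genes, 935 of 6183 were called lower and 505 higher from 55% GC on, and 435 of 7344 lower and 1098 higher under 45%. With siBDNF the calls did not follow GC content in order, with 3 higher and 1 lower under 45% GC, 1 higher and 6 lower from 45 to 55%, and 2 higher and 3 lower from 55% on. Of all genes the same bins held 1206 higher and 401 lower of 7344, 582 and 899 of 7211, and 384 and 844 of 6183. Over all genes tested the median log2 fold change with siNTRK2 was 0.06 under 45% GC and −0.06 from 55% GC on, and with siBDNF it was 0.08 and −0.05. In senescent against proliferating cells the order was the opposite, with medians of −0.11 and 0.13 over all genes and 0.02 and 0.24 over the members. Across the 36 genes Pearson's r between GC content and log2 fold change was 0.305 in senescence, −0.532 with siNTRK2 and −0.360 with siBDNF, against 0.0669, −0.113 and −0.158 over all 20738 genes with a GC content, values that describe genes measured in the same libraries and that share the siCtrl-transfected senescent libraries. The part of GC content in the members' changes was not tested.

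**Figure D5:**
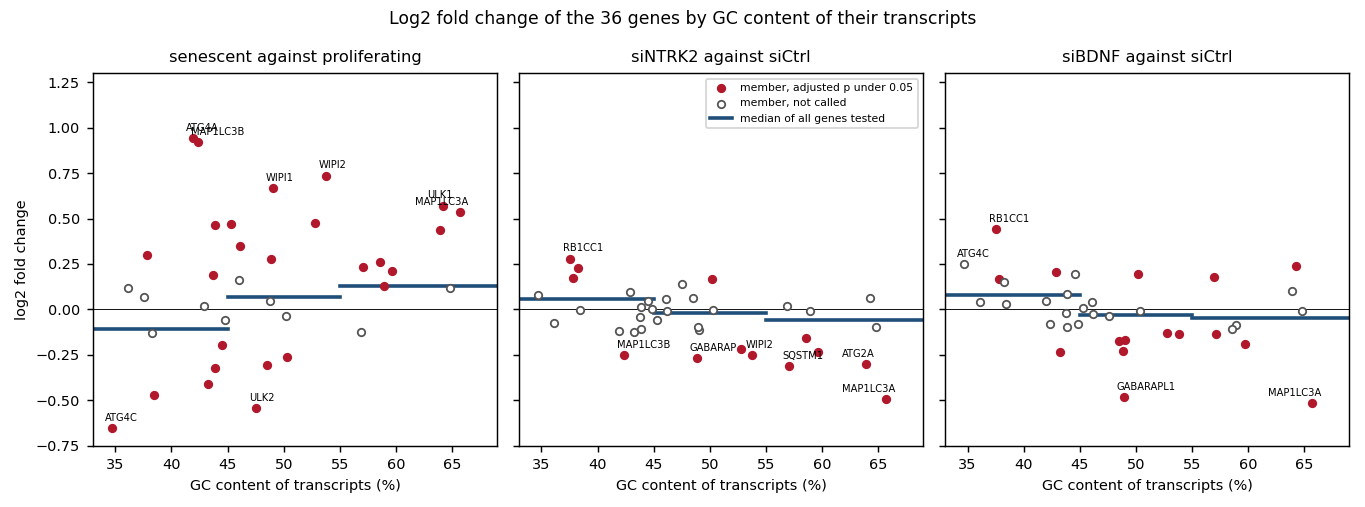
Log2 fold change (y axis) of the 36 genes against GC content of the canonical transcript (x axis, %) in 3 comparisons (panels). Filled points passed an adjusted p of 0.05, and blue lines give the median of all genes tested under 45%, from 45 to 55% and from 55% GC on. With siNTRK2 the called genes from 55% GC on all lie below 0.

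A further 70 genes of the pathway were followed by count, of which 67 were tested. In senescent against proliferating cells 36 were called higher and 12 lower (29.8% and 28.3% of all genes), among them PINK1, the kinase that starts mitophagy (0.86 ± 0.05, adjusted p = 8.4e-14), RUBCN, which encodes the PI3K complex inhibitor Rubicon (0.58 ± 0.06), and VAMP8, a SNARE of autophagosome fusion (1.10 ± 0.17). DDIT4, which encodes the mTORC1 inhibitor REDD1, fell by 1.38 ± 0.07 (adjusted p = 7.92e-15). FOXO1 (0.0317 and 0.337 CPM) and RETREG1 (0.0804 and 0.279 CPM) were called higher from at most 10 counts in each proliferating library. The RETREG1 call was lost without proliferating replicate 1 or 3 or siCtrl-transfected senescent replicate 3. With siNTRK2 5 of these genes were called higher and 16 lower (11.1% and 10.0% of all genes), including AKT1S1, an mTORC1 subunit (−0.30 ± 0.06), NRBF2 (−0.40 ± 0.07), a PI3K complex subunit, PINK1 (−0.34 ± 0.05), FKBP8 (−0.33 ± 0.06) and VAMP8 (−0.60 ± 0.17), with ZKSCAN3, described as a repressor of autophagy genes, higher (0.42 ± 0.11).

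With siBDNF, 11 of the 67 were called higher and 8 lower (10.3% and 10.2% of all genes), the largest in their lists being TMEM41B, a lipid scramblase (0.29 ± 0.10), SESN1, a stress-induced mTORC1 inhibitor (0.42 ± 0.08, adjusted p = 4.48e-04), WDFY3 (0.38 ± 0.06), which encodes the scaffold ALFY, and VPS41 (−0.23 ± 0.05), a subunit of the lysosomal tether HOPS. FOXO3, a transcription factor of autophagy genes, was called higher (0.22 ± 0.06) but not with the length and GC offset, and the same held for WDFY3. TMEM41B lost its call with the replicate block, with the offset and without any 1 of the 6 libraries. In siNTRK2 against siBDNF 3 were called higher and 14 lower (8.84% and 7.86% of all genes). VPS16, a core subunit of HOPS, was among the higher ones (0.32 ± 0.07). The lower ones included FOXO3 (−0.20 ± 0.06), whose call was lost with the offset and without any 1 of 3 libraries, PRKAB2, an AMPK subunit (−0.48 ± 0.07), NRBF2 (−0.39 ± 0.07), PINK1 (−0.32 ± 0.05) and the mitophagy receptor BNIP3L (−0.31 ± 0.06).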

How the data were processed

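RNA of WI-38 cells was made into 12 poly(A)-selected, strand-marking libraries with the TruSeq Stranded mRNA kit. Per the submitters' processing notes, the authors used bcl2fastq 2.20.0.422, Cutadapt, STAR 2.4.0j and featureCounts 1.6.4 on hg19, and deposited whole-number counts per Ensembl gene, 1 table per library, with no normalization. How reads over overlapping genes were counted is not given in the sources used here. Total counts were 31567912 to 72328151 per library.

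From these counts, R 4.3.3 with edgeR 4.0.16 (TMM scaling, filterByExpr over the 4 groups, quasi-likelihood test on all 12 libraries together, Benjamini-Hochberg adjustment over the 21518 genes tested) gave log2 fold changes, SEs and adjusted p-values, and a gene was called at an adjusted p under 0.05. Levels are CPM on TMM-scaled library sizes, and length and GC content come from the canonical GENCODE transcript. Gene coordinates are from GENCODE for GRCh37 (hg19). Alternatives were DESeq2 1.42.0 (size factors and Wald test), library totals, other filters, a fit on only the groups compared, a replicate block, an offset fitted per library as natural splines of length and GC content with 4 degrees of freedom each, and leaving out each library. The offset was fitted with an intercept, so it also removed each library's mean log deviation over the genes with a length. Leaving out members that overlap a gene with more counts was added after seeing the data. The code was tested on simulated counts. The 36 members and the gene lists were chosen with earlier results of these data known. Values in every library are given for the LC3, GABARAP and receptor genes and, in each comparison against siCtrl or proliferating cells, for the 5 called members with the largest increase and the 5 with the largest decrease, and other pathway lists are named by the member with the largest called change.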

Additional observations from a re-analysis of the deposited data

Results flagged for a closer look

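The effects of siNTRK2 and siBDNF on 5 members differed by the direct test between both silencings, which called 16.7% of all genes tested. The siCtrl-transfected libraries are not in this contrast, but all 12 libraries enter the scaling and the estimate of the spread. The log2 difference of siNTRK2 against siBDNF was 0.38 for GABARAPL1, 0.24 for ATG3, −0.40 for ATG2A, −0.18 for SQSTM1 and −0.17 for MAP1LC3B. In every case the 3 siNTRK2 libraries lay on the same side of the 3 siBDNF libraries. With 3 libraries per group, no search for single outlying libraries was made.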

How the results depend on the processing

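Requiring an absolute log2 fold change over 1 left 0 members called in each comparison and direction. The length and GC offset, alone and with the replicate block, gave 14 instead of 8 members lower in senescence, 3 instead of 6 higher with siBDNF, and 9 and 10 instead of 5 called between the silencings (6 and 7 higher instead of 2). Library totals as the only scaling gave 4 instead of 10 lower with siBDNF and 10 instead of 5 between the silencings (8 lower instead of 3), and a minimum of 10 counts in every library gave 5 lower there. Library totals moved the median of all genes from 0.0040 to 0.061 with siBDNF and from −0.0037 to −0.042 between the silencings. The medians of the members moved from −0.016 to 0.042 and from −0.041 to −0.080. Leaving out 1 library gave 4 to 15 called with siBDNF (1 to 5 higher, 3 to 10 lower) and 1 to 4 higher with siNTRK2. The members called were 24 to 27 in senescence, 9 to 14 with siNTRK2 and 4 to 6 between the silencings when a library was left out. Same-numbered replicates did not deviate together (mean r of 0.0018 over 18 pairs, −9.4e-04 over 36 other pairs), and the replicate block gave 26, 12, 14 and 5 members called in the 4 comparisons, against 26, 13, 16 and 5 without it. Without the members that overlap a gene with more counts, ATG10 among them, the counts were 23, 12, 14 and 5.

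The offset moved the median of all genes from 0.02 to −0.12 in senescence and from −0.0024 to 0.018 with siNTRK2. That median went from 0.0040 to −0.024 with siBDNF and from −0.0037 to 0.047 between the silencings. With the offset the sign of the log2 fold change turned for 6 of 36 members in senescence, 7 with siNTRK2, 8 with siBDNF and 5 between the silencings, of which 2, 0, 1 and 0 had been called. In senescence it turned, alone and with the replicate block, for ATG2B (as low as −0.28), UVRAG (as low as −0.013), ATG4D (as low as −0.12), ATG101 (−0.00560 and −0.0072), ATG9A (−0.068 and −0.068) and GABARAP (−0.19 and −0.19, and −0.0031 to 0.084 with a library left out), and with siBDNF for ATG2B (−0.038 and −0.038) and NBR1 (−0.059 and −0.059, and −0.0074 to 0.034 with a library left out). With siBDNF the sign also turned for PIK3C3, not called at 0.15 and as low as −0.10 with the offset. The same held for ATG12 (as low as −0.13), ATG5, UVRAG, PIK3R4 and ATG4D, none of them called. OPTN with siNTRK2 was 0.018 with library totals, 0.014 without a filter, 0.00055 with the replicate block, 0.00874 with the offset, 0.0095 with both, 0.0024 with only the groups compared, and −0.040 to 0.031 with a library left out. CALCOCO2 with siBDNF was 0.038 with library totals and −0.049 to 0.016 with a library left out. Between the silencings, MAP1LC3A was −0.016 and TAX1BP1 −0.034 with library totals, TAX1BP1 −0.00435 with 10 counts in every library, GABARAPL2 0.017 and 0.017 and CALCOCO2 0.026 and 0.026 with the offset, alone and with the block. With a library left out these ranged from −0.052 to 0.083 (MAP1LC3A), −0.020 to 0.039 (TAX1BP1), −0.030 to 0.022 (GABARAPL2) and −0.039 to 0.015 (CALCOCO2). The offset also rescales each library, and the part of this rescaling, of length and of GC content in its shifts was not tested. The cause of the other shifts was not tested. Of the 60 calls over the 4 comparisons, 35 held in all 9 settings with each library left out, 19 of 26 in senescence, 8 of 13 with siNTRK2, 4 of 16 with siBDNF and 4 of 5 between the silencings. The lowest count of any member was 148, and the effect of depth on the members' calls was not tested. Of 23 named changes of other pathway genes 18 held in every fit that gave a value (14 fits for FOXO1 and RETREG1 in senescence, which a minimum of 10 counts in every library leaves out, and 15 for the others), and TMEM41B, RETREG1, FOXO3 (in both comparisons) and WDFY3 lost their call somewhere.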
